A study of Mus musculus with 12 samples.

Results

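Expression of 7 genes of the RAS, RAF, MEK and ERK cascade was examined in brain and liver of mice with and without the vault RNA gene Vaultrc5. The genes were the RAS genes Hras and Nras, the RAF kinase genes Araf and Braf, the MEK genes Map2k1 and Map2k2, and the ERK1 gene Mapk3. They were picked out by symbol, from a list drawn up with earlier results of these data known, and were 7 of the 55450 genes in the count table. Total RNA was sequenced from 12 libraries in 4 groups of 3: brain of wild-type mice, brain of Vaultrc5-/- mice, liver of wild-type mice and liver of Vaultrc5-/- mice. All mice were males of 7 to 9 weeks. The titles of the control libraries carry the word flx while their genotype label is wild-type, and the labels name no Cre, promoter or deletion common to both genotypes. The labels do not state whether the 3 libraries of a group came from separate animals, nor whether a brain and a liver with the same number came from one animal, so p-values measure the spread between these libraries.

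The cascade carries signals from growth factor receptors to the nucleus. Receptor tyrosine kinases recruit exchange factors that load RAS, a small GTPase at the membrane, with GTP. Active RAS binds RAF kinases, RAF phosphorylates the dual-specificity kinases MEK1 and MEK2, and these phosphorylate ERK1 and ERK2, which act on cytoplasmic substrates and transcription factors. The cascade is activated by phosphorylation, which RNA levels do not measure. In brain it is known for its part in synaptic plasticity, and in liver for its part in growth and regeneration. Vault RNAs are short non-coding RNAs transcribed by RNA polymerase III, named after the vault ribonucleoprotein particle.

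Marker counts matched the tissue labels of all libraries and the genotype labels of the liver libraries. All 6 knockout libraries had 0 counts of Vaultrc5, against 4, 1 and 4 in the control brains and 33, 39 and 48 in the control livers. In brain the control counts were too low to show the genotype of a single library. The hepatocyte gene Alb had 0 to 5 counts in brain and at least 714287 in liver, and the neuronal gene Snap25 had at least 31003 in brain and at most 3 in liver. Brain libraries held 14844965 to 18567388 counts each, and liver libraries 23247451 to 27155500. All 7 genes passed the filter on low counts in every comparison. Levels below are CPM, the counts of a gene scaled to the size of its library, with library sizes corrected by TMM, a scaling that assumes that most genes do not differ. Between brain and liver this was not met, since 78.6% of genes tested in the wild type passed. Tissue differences therefore depend on the scaling, and their values under library totals are given too.

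**Figure D1:**
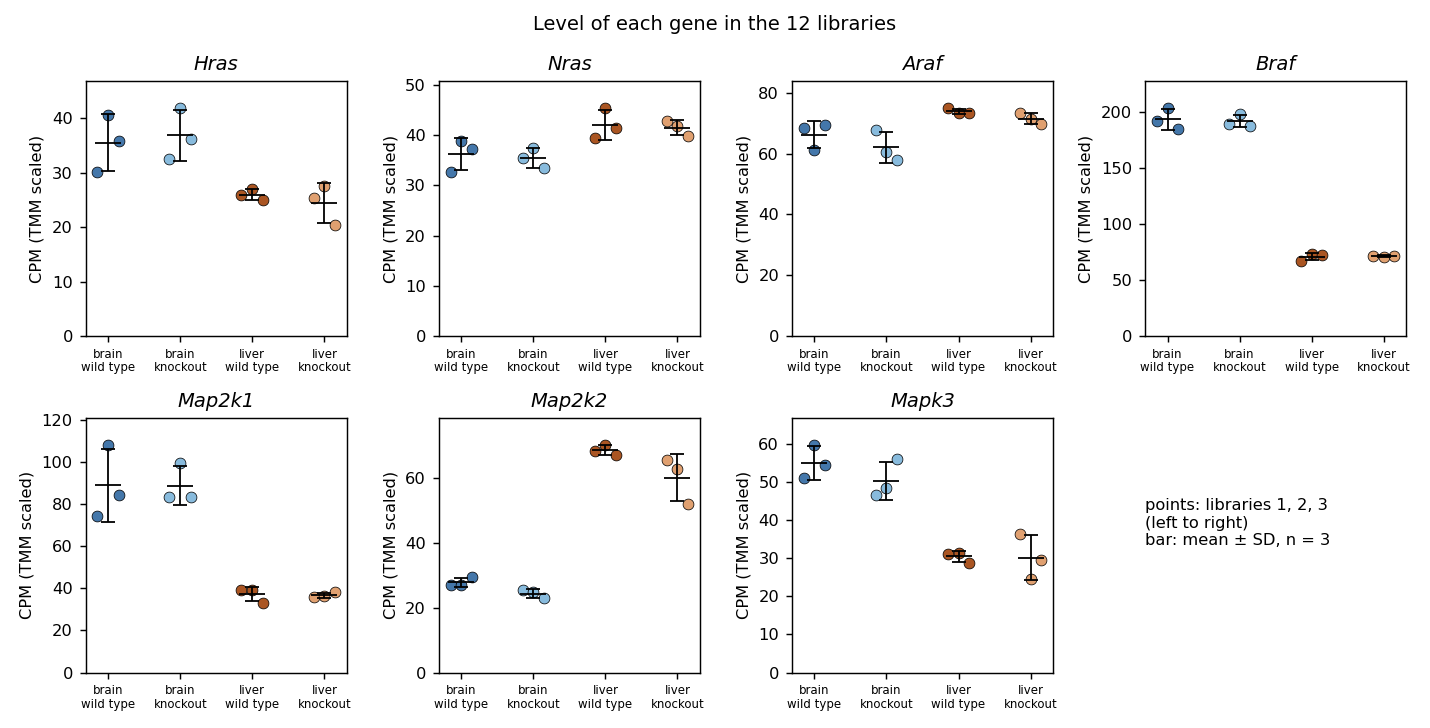
TMM-scaled CPM of each of the 7 genes in the 12 libraries, with 1 panel per gene, points for libraries 1 to 3 from left to right in each group and bars for the mean ± SD (n = 3). Braf, Map2k1, Mapk3 and Hras were higher in every brain library than in any liver library, Map2k2 was lower in every brain library, and the Map2k2 knockout points lay below the wild-type points in each tissue.

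Each gene was compared first between brain and liver, within each genotype. With TMM scaling the 2 RAS genes had smaller tissue differences than Braf, Map2k1, Map2k2 and Mapk3. Hras (ENSMUSG00000025499.18; GRCm38 chromosome 7, 141189105 to 141194005, minus strand) encodes a RAS GTPase that depends on palmitoylation to reach the plasma membrane. Hras was at 30.1, 40.6 and 35.9 CPM in wild-type brain and at 25.9, 27.0 and 24.9 CPM in wild-type liver. In the knockout it was at 32.6, 41.9 and 36.3 CPM in brain and at 25.4, 27.5 and 20.4 CPM in liver. Every brain library lay above every liver library of its genotype, and library 2 was the highest of each brain group. Hras was 1.38-fold higher in wild-type brain (log2 fold change 0.46 ± 0.13 SE, n = 3 per group, edgeR quasi-likelihood test, adjusted p = 0.0124) and also higher in knockout brain (log2 fold change 0.59 ± 0.15, edgeR adjusted p = 0.00705). Under library totals these log2 fold changes were 1.30 and 1.47. The wild-type call was lost without wild-type brain library 2 (log2 fold change 0.29, edgeR adjusted p = 0.0765) and without wild-type brain library 3 (0.42, edgeR adjusted p = 0.0664).

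Nras (ENSMUSG00000027852.14; chromosome 3, 103058285 to 103067914, plus strand) encodes the other RAS GTPase examined. Nras was at 32.6, 38.7 and 37.3 CPM in wild-type brain and at 39.5, 45.3 and 41.4 CPM in wild-type liver. Its knockout levels were 35.4, 37.4 and 33.4 CPM in brain and 42.8, 41.9 and 39.9 CPM in liver. The tissue groups did not overlap, with the lowest liver library just above the highest brain library. Nras did not pass the test in the wild type (log2 fold change brain over liver -0.21 ± 0.11, edgeR adjusted p = 0.116), was lower in brain in the knockout (-0.24 ± 0.09, edgeR adjusted p = 0.0400), and was higher in brain in both genotypes when library totals replaced TMM (0.63 and 0.64). The knockout call was lost without brain knockout library 1 or 3 or liver knockout library 1 or 2 (edgeR adjusted p = 0.0912, 0.127, 0.0925 and 0.0617), without the low-count filter (0.130) and with replicate number as a block (0.0668). In the wild type the call was gained without brain library 2 (-0.32, edgeR adjusted p = 0.0498) and in a fit of all 12 libraries (-0.22, edgeR adjusted p = 0.0489).

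The RAF genes went apart: Braf was higher in brain and Araf was near level. Braf (ENSMUSG00000002413.15; chromosome 6, 39603237 to 39725463, minus strand) encodes the RAF kinase with the highest basal activity. Braf was at 192, 203 and 185 CPM in wild-type brain and at 67.2, 73.4 and 71.9 CPM in wild-type liver. Knockout levels were 189.6, 198.0 and 187.8 CPM in brain and 71.8, 70.4 and 71.2 CPM in liver. Every brain library was far above every liver library, and the libraries of a tissue lay close together. The difference was 2.74-fold in the wild type (log2 fold change 1.46 ± 0.10, edgeR adjusted p = 4.62e-06) and 2.69-fold in the knockout (1.42 ± 0.09, edgeR adjusted p = 4.18e-06), and the log2 fold changes rose to 2.29 and 2.30 under library totals. Exons of Braf overlap 146 bases of Ndufb2, which lies on the opposite strand, and whether the counting used strand is not given in the sources used here.

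Araf (ENSMUSG00000001127.12; chromosome X, 20797814 to 20860519, plus strand) encodes a RAF kinase with lower basal activity than BRAF. Araf was at 68.4, 61.0 and 69.3 CPM in wild-type brain and at 74.9, 73.4 and 73.5 CPM in wild-type liver. In the knockout it was at 67.9, 60.6 and 57.7 CPM in brain and at 73.4, 71.3 and 69.8 CPM in liver. Brain lay below liver without overlap in both genotypes, by a margin narrower than the spread within brain. Araf did not pass the test in the wild type (log2 fold change -0.15 ± 0.10, edgeR adjusted p = 0.180) or the knockout (-0.21 ± 0.10, edgeR adjusted p = 0.0816), and its sign turned under library totals (0.69 and 0.67). In the knockout it was called by DESeq2 (adjusted p = 0.0411) and by edgeR without brain library 1 (-0.26, adjusted p = 0.0418). Araf exons overlap the neuronal gene Syn1, on the opposite strand, by 9 bases, and 1 library had a fractional Araf count.

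The MEK genes showed opposite tissue patterns. Map2k1 (ENSMUSG00000004936.8; chromosome 9, 64185770 to 64253631, minus strand) encodes MEK1. It was at 74.4, 107.9 and 84.1 CPM in wild-type brain and at 39.2, 39.4 and 33.2 CPM in wild-type liver. Knockout levels were 83.1, 99.6 and 83.4 CPM in brain and 35.9, 36.1 and 38.0 CPM in liver. The lowest brain library was well above the highest liver library, and library 2 was again the highest in both brain groups. Map2k1 was 2.39-fold higher in wild-type brain (log2 fold change 1.26 ± 0.16, edgeR adjusted p = 0.000171) and 2.41-fold higher in knockout brain (1.27 ± 0.11, edgeR adjusted p = 1.96e-05), with log2 fold changes of 2.10 and 2.14 under library totals.

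Map2k2 (ENSMUSG00000035027.18; chromosome 10, 81105915 to 81133975, plus strand) encodes MEK2. Map2k2 was at 27.1, 27.1 and 29.5 CPM in wild-type brain and at 68.4, 70.3 and 67.2 CPM in wild-type liver. Knockout levels were 25.4, 24.9 and 22.9 CPM in brain and 65.8, 62.9 and 52.0 CPM in liver. Here every liver library was above every brain library, and liver knockout library 3 was the lowest of the liver libraries. Map2k2 was 2.45-fold lower in wild-type brain (log2 fold change -1.29 ± 0.09, edgeR adjusted p = 6.79e-06) and 2.48-fold lower in knockout brain (-1.31 ± 0.12, edgeR adjusted p = 2.84e-05). Under library totals it stayed lower in brain, by less (-0.45 and -0.43).

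The upstream sequences of the MEK genes are shown because these 2 paralogs differed most in tissue pattern. Each is the 250 bases before the RefSeq gene start on GRCm38.p6, 5′ to 3′ on the gene's strand, with capitals marking GC boxes (GGGCGG on either strand). The GENCODE start of Map2k1 lies inside its window, so that the last bases, with the last GC box, are within the GENCODE gene.

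Map2k1, chr9:64253606-64253855, minus strand: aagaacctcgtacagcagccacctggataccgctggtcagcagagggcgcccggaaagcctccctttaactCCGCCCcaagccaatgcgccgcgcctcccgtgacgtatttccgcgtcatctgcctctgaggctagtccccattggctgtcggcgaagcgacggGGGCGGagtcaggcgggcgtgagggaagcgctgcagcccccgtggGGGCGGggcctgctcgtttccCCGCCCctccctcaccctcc

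Map2k2, chr10:81105665-81105914, plus strand: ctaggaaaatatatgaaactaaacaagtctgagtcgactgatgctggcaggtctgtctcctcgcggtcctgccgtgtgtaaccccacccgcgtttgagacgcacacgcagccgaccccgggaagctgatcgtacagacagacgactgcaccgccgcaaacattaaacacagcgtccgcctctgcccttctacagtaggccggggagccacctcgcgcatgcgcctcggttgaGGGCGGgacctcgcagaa

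The Map2k1 window held 4 GC boxes, 2 CCAAT boxes (CCAAT on either strand) and 1 ETS core (CCGGAA on either strand), with 68.4% G or C and 24 CpG dinucleotides. The Map2k2 window held 1 GC box, no CCAAT box and no ETS core, with 59.6% G or C and 23 CpG. Among 32851 RefSeq windows of the same length, 32.7% held a GC box, 33.8% a CCAAT box and 12.0% an ETS core, and the medians were 52.4% G or C and 6 CpG. Windows were found for 6 of the 7 genes. Of the others, Hras had 3 GC boxes, Nras 2, Braf 1 and Araf 0. The Araf window lies inside the gene as GENCODE gives it, whose start is further upstream than the RefSeq start. Braf had 2 matches to the palindromic cyclic AMP response element TGACGTCA, which 1.55% of windows held. These matches describe the letters of the windows, and binding was not measured.

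Mapk3 (ENSMUSG00000063065.13; chromosome 7, 126759601 to 126765819, plus strand) encodes ERK1, the kinase at the end of the cascade. Mapk3 was at 50.9, 59.6 and 54.3 CPM in wild-type brain and at 31.2, 31.4 and 28.8 CPM in wild-type liver. In the knockout it was at 46.6, 48.3 and 55.9 CPM in brain and at 36.2, 24.6 and 29.6 CPM in liver. All brain libraries exceeded all liver libraries, and the liver knockout group had the widest relative spread. Of the livers, knockout library 1 was the highest and knockout library 2 the lowest. Knockout library 2 also had the highest Kupffer cell marker sum of the livers (330 CPM against 126 to 177). Its hepatocyte (60928 CPM against 76797 to 98071) and stellate cell sums (349 CPM against 372 to 445) were the lowest. Their part in the Mapk3 values was not tested. Mapk3 was 1.81-fold higher in wild-type brain (log2 fold change 0.86 ± 0.10, edgeR adjusted p = 0.000134) and 1.66-fold higher in knockout brain (0.73 ± 0.16, edgeR adjusted p = 0.00348), and the library totals gave log2 fold changes of 1.70 and 1.61.

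In the wild type 5 of the 7 genes passed the test between tissues, 4 higher and 1 lower in brain, beside 78.6% of the 18850 genes tested. In the knockout 6 passed, 4 higher and 2 lower, beside 78.7% of 18785. Groups of all 7 did not overlap in either genotype, as for 82.4% of all genes in each, so these counts lie near the background of a comparison between organs. Under library totals all 7 passed in both genotypes, 6 higher and 1 lower, with Nras and Araf turned, while the median log2 fold change over all genes moved from 0.21 to 1.05 in the wild type and from 0.21 to 1.08 in the knockout. Relative to that median, Nras and Araf lay below it and Braf and Map2k1 above it under either scaling. In whole tissue, fewer cells of a type and less RNA per cell cannot be told apart. Summed levels of 5 neuron markers were 3026 to 4111 CPM in the brain libraries and 25.7 to 34.6 CPM in liver, and those of 5 hepatocyte markers were 0.299 to 2.17 CPM in brain and 60928 to 98071 CPM in liver. Their part in the tissue differences was not tested.

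**Figure D2:**
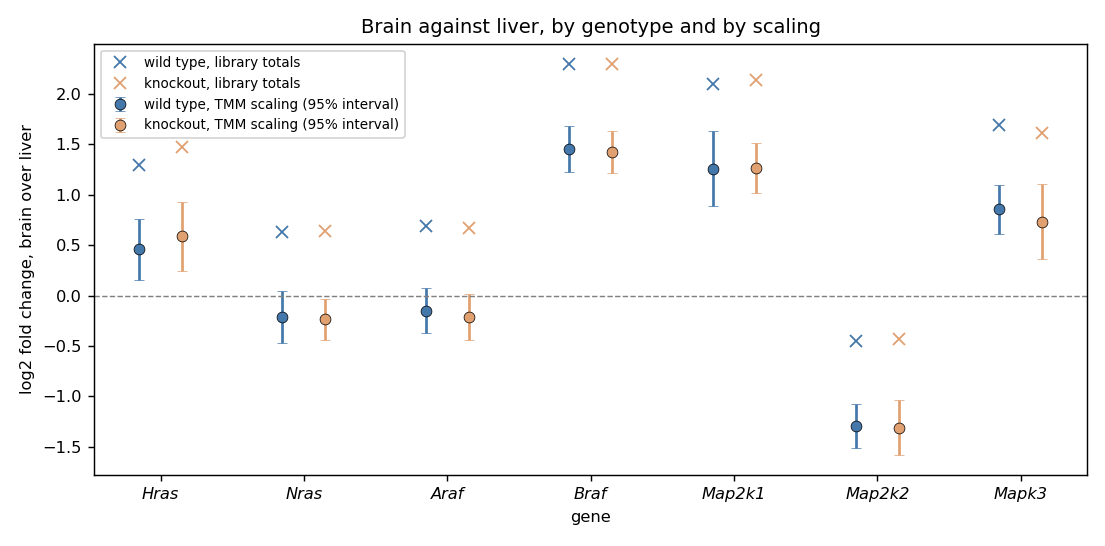
Log2 fold change of brain over liver for each of the 7 genes, in the wild type and the knockout, with TMM scaling and with library totals. Bars with TMM scaling give the confidence interval and not the SE (0.15 to 0.77 for Hras in the wild type). Braf, Map2k1, Mapk3 and Hras were above 0 and Map2k2 below 0 under both scalings, whereas Nras and Araf were below 0 with TMM and above 0 with library totals.

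Ratios of paralogs within a library do not depend on the library scaling. The log2 ratio of Map2k1 to Map2k2 counts was 1.46, 1.99 and 1.51 in wild-type brain, 1.71, 2.00 and 1.86 in knockout brain, -0.80, -0.84 and -1.02 in wild-type liver and -0.88, -0.80 and -0.45 in knockout liver. Map2k1 had more counts than Map2k2 in all 6 brain libraries and fewer in all 6 liver libraries. The means were 1.76 ± 0.24 and -0.80 ± 0.19 (SD, n = 6 each), a 5.87-fold change of the ratio (exact two-sided permutation test, p = 0.00216, adjusted over 3 ratios 0.00216, the smallest p this design allows). The log2 ratio of Araf to Braf was -1.59 ± 0.14 in brain and 0.03 ± 0.06 in liver, a 3.08-fold lower ratio in brain (same exact test, p = 0.00216, adjusted 0.00216). Braf thus had more counts than Araf in every brain library, and the counts were near equal in liver. The log2 ratio of Hras to Nras was 0.01 ± 0.12 in brain and -0.74 ± 0.13 in liver, a 1.68-fold higher ratio in brain (same exact test, p = 0.00216, adjusted 0.00216). The 2 genotypes are pooled in these means. Between knockout and wild type within a tissue, the 6 differences of log2 ratios ran from -0.083 to 0.20, and none passed the test (exact permutation p = 0.3 to 0.7, adjusted 0.6 to 0.7, where 3 against 3 cannot go below 0.1).

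**Figure D3:**
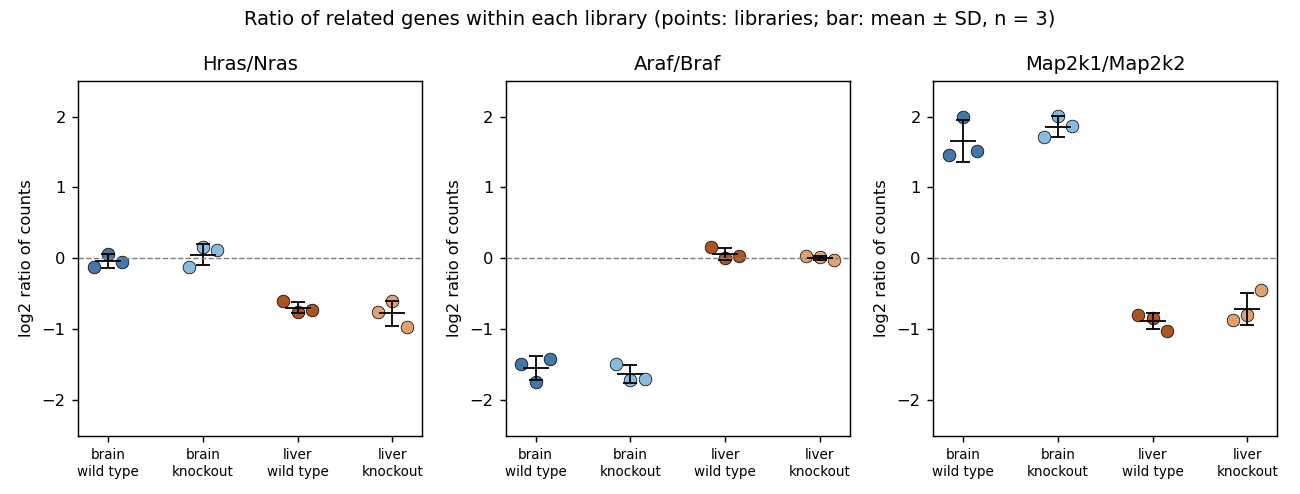
Log2 ratio of counts of Hras to Nras, Araf to Braf and Map2k1 to Map2k2 in each library, by tissue and genotype. Brain and liver points did not overlap for any of the 3 ratios, and the Map2k1 to Map2k2 ratio changed sign between tissues (mean 1.76 in brain and -0.80 in liver).

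Levels were set against each other within a tissue per length, in TPM (counts divided by length and scaled to one sum in each library) over the union of a gene's exons. In wild-type brain Map2k1 (86.3 ± 19.5 TPM, SD, n = 3) and Mapk3 (80.0 ± 9.39 TPM) were the highest and their ranges overlapped. They were followed by Braf at 45.8 TPM, Araf at 33.2 TPM, Hras at 31.3 TPM, Nras at 22.3 TPM and Map2k2 at 16.2 TPM, and of these neighbours only Araf and Hras overlapped. In wild-type liver the 7 genes lay closer together. Mapk3 was at 16.4 TPM, Map2k2 at 14.8 TPM, Araf at 13.8 TPM, Map2k1 at 13.4 TPM, Nras at 9.60 TPM, Hras at 8.46 TPM and Braf at 6.22 TPM, where only Araf and Map2k1 overlapped. Knockout tissues gave the same first and last gene in each tissue. Braf, whose exons together are the longest, had the largest tissue difference among the genes higher in brain and the lowest liver level per length. Map2k1 made up 83.9% ± 2.64 of the summed MEK TPM in wild-type brain and 47.5% ± 2.00 in wild-type liver. With the longest transcript as the length these shares were 75.5% and 34.8%, and the order changed too: Map2k2 led in wild-type liver at 31.4 TPM, and Araf, at 67.3 TPM in wild-type brain, stood above Braf at 57.7 TPM.

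The second comparison asked what differed in the knockout. None of the 7 genes was called in either tissue by edgeR, where 0% of all genes were called (0 of 18075 in brain and 0 of 15329 in liver). At an unadjusted p under 0.05, edgeR gave 122 genes in brain (0.675%) and 536 in liver (3.5%), and none of the 7 genes was among them; under library totals 1 of the 7, Map2k2, had such a p in liver. DESeq2 called 0 genes in brain and 10 in liver, and edgeR with replicate number as a block called 0 in brain and 2 in liver, again none of the 7. In brain the log2 fold changes of knockout over wild type were 0.05 ± 0.15 for Hras, -0.04 ± 0.10 for Nras, -0.10 ± 0.10 for Araf, -0.02 ± 0.08 for Braf, -0.01 ± 0.16 for Map2k1, -0.20 ± 0.09 for Map2k2 and -0.13 ± 0.11 for Mapk3 (± SE). In liver they were -0.08 ± 0.12, -0.01 ± 0.08, -0.04 ± 0.07, 0.01 ± 0.07, -0.01 ± 0.09, -0.18 ± 0.09 and -0.01 ± 0.13 in the same order. The 95% intervals of the 7 genes reached from -0.41 (Map2k2) to 0.40 (Hras) in brain and from -0.40 (Map2k2) to 0.29 (Mapk3) in liver, so larger changes lay outside them.

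Of the 7 genes, Map2k2 had the lowest fold change in the knockout in both tissues. Each of its 3 knockout libraries was below each of its 3 wild-type libraries, in brain (22.9 to 25.4 against 27.1 to 29.5 CPM) and in liver (52.0 to 65.8 against 67.2 to 70.3 CPM). Groups of the other 6 genes overlapped in both tissues. Over all genes tested, groups did not overlap for 4.23% in brain and 9.63% in liver, with the knockout lower for 2.31% in brain, 5.47% in liver and 0.278% in both (38 of 13681). The log2 fold change was -0.20 in brain (95% interval -0.41 to 0.01, unadjusted p = 0.0625, edgeR adjusted p = 1.00) and -0.18 in liver (-0.40 to 0.04, unadjusted p = 0.0908, edgeR adjusted p = 0.992). Map2k2 ranked 177 by p among the 18075 genes in brain and 1096 among the 15329 in liver. Without liver knockout library 3 the liver value was -0.10. Among the 6 livers that library had the highest hepatocyte marker sum (98071 CPM against 60928 to 96346), the highest stellate cell sum (445 CPM against 349 to 431) and the lowest cholangiocyte sum (8.97 CPM against 12.4 to 23.5). Averaged over both tissues in 1 fit of 12 libraries, which was added after these values were seen, it was -0.19 ± 0.07 (unadjusted p = 0.0192, edgeR adjusted p = 1.00, rank 196 of 20141 genes), and with the replicate block -0.19 (unadjusted p = 0.0165, edgeR adjusted p = 0.855, rank 384). Summed red cell markers did not overlap between genotypes in liver, with all 4 markers detected in every library (13.4 to 30.9 CPM in the wild type and 34.4 to 50.1 CPM in the knockout), while hepatocyte and neuron marker sums overlapped in their tissues. The part of these marker differences in the Map2k2 values was not tested.

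**Figure D4:**
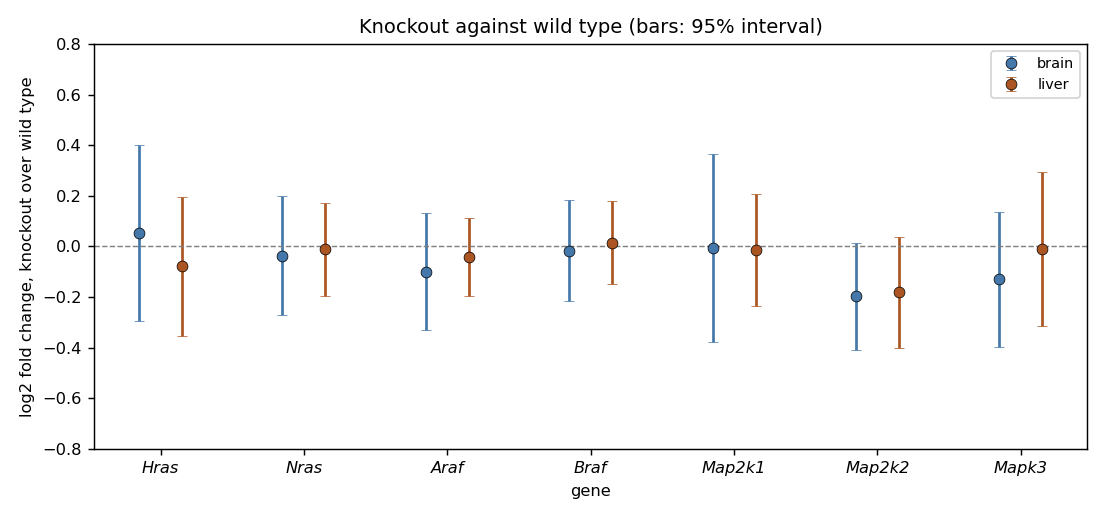
Log2 fold change of knockout over wild type for each of the 7 genes in brain and in liver, with bars for the 95% interval. All 14 intervals include 0, and those of Map2k2 (-0.20 in brain and -0.18 in liver) lie lowest.

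The effect of the knockout on the 7 genes was also compared between tissues. For the difference of the knockout effects (liver minus brain), edgeR called none of the 7 genes and 0% of the 20141 genes tested. It gave 489 genes (2.43%) at an unadjusted p under 0.05, none of them among the 7, and DESeq2 called 1 gene, also not among them. The 7 differences ran from -0.15 ± 0.20 (Hras) to 0.10 ± 0.19 (Mapk3), and that of Map2k2 was -0.0028 ± 0.14 (95% interval -0.31 to 0.30).

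Other genes around the cascade were taken from 8 lists with 112 names, of which 111 were in the table and 106 were tested between tissues. In the wild type 60 of the 106 were higher and 27 lower in brain, with a median log2 fold change of 0.99 against 0.21 over all genes (43.9% of all genes were higher and 34.7% lower). In the knockout 58 were higher and 27 lower, with a median of 0.88 against 0.21 (43.5% and 35.2% of all genes). Under library totals the wild-type split was 72 higher and 16 lower, and the knockout split 75 and 16. Values below are CPM in wild-type brain and liver (mean ± SD, n = 3) for genes called in both genotypes with one sign and at 1 CPM or more in the tissue where they were lower.

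Upstream of RAS, receptors went in both directions. Of 18 receptor tyrosine kinase genes 9 were higher and 7 lower in wild-type brain. Ntrk2, the receptor of brain-derived neurotrophic factor, was at 488 ± 79.3 CPM in brain and 1.46 ± 1.04 CPM in liver. Igf1r, the receptor of insulin-like growth factors, was at 115 ± 2.07 and 11.5 ± 0.859 CPM, and Fgfr1, a fibroblast growth factor receptor, at 58.1 ± 18.4 and 10.1 ± 1.69 CPM. Higher in liver were Egfr, the epidermal growth factor receptor (22.2 ± 0.666 in brain and 1768 ± 374 CPM in liver), its relative Erbb3 (12.7 ± 6.74 and 301 ± 44.9 CPM) and Met, the hepatocyte growth factor receptor (9.70 ± 4.47 and 162 ± 8.41 CPM).

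Among 17 adaptors and exchange factors, which connect receptors to RAS, 10 were higher and 2 lower in wild-type brain. Rasgrp1, a diacylglycerol-responsive exchange factor, was at 303.5 ± 107 CPM in brain and 2.71 ± 0.765 CPM in liver, and the calcium-responsive Rasgrf2 at 112 ± 42.5 and 1.27 ± 0.331 CPM. The adaptor Frs3 was at 10.3 ± 0.962 and 2.40 ± 0.225 CPM. The adaptor Shc1 was higher in liver (8.89 ± 0.704 and 73.5 ± 7.38 CPM), and so was the exchange factor Sos1 (79.7 ± 6.52 and 131.8 ± 12.0 CPM; log2 fold change -0.72, but 0.12 under library totals). Of 10 genes for GTPase-activating proteins, which switch RAS off, 8 were higher and 0 lower in wild-type brain by edgeR, where the lowest of the 10 log2 fold changes was 0.05. Rasa2 was at 41.0 ± 3.52 CPM in brain and 8.18 ± 0.662 CPM in liver, and Dab2ip at 133 ± 29.2 and 28.3 ± 3.13 CPM.

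Of 8 RAS family relatives 3 were higher and 4 lower in wild-type brain. Mras was at 117 ± 32.2 CPM in brain and 5.95 ± 1.98 CPM in liver, and Rheb, an activator of mTORC1, at 48.2 ± 2.90 and 33.6 ± 3.73 CPM. Rras was lower in brain (2.70 ± 0.289 and 11.3 ± 1.80 CPM). Rap1a and Rap1b were lower in brain with TMM (log2 fold changes -0.95 and -0.81), but under library totals Rap1a was at -0.11 and Rap1b at 0.03.

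Beside RAF, MEK and ERK, 8 of 11 tested scaffolds and modulators were higher and 1 lower in wild-type brain. Ksr2 and Ksr1, scaffolds that hold RAF, MEK and ERK together, were at 129.9 ± 12.9 and 35.2 ± 2.64 CPM in brain and at 2.05 ± 0.193 and 5.12 ± 0.781 CPM in liver. Pea15a, which holds ERK in the cytoplasm, was at 215 ± 7.69 and 18.2 ± 0.440 CPM. Lamtor2, part of the late endosomal scaffold for MEK1, was lower in brain (9.31 ± 1.01 and 30.4 ± 3.60 CPM). Among 12 tested feedback inhibitors 6 were higher and 3 lower in wild-type brain: Spred3 (35.3 ± 6.08 and 1.24 ± 0.309 CPM), Spry2 (31.3 ± 1.17 and 2.12 ± 0.363 CPM) and the ERK phosphatase gene Dusp5 (15.7 ± 9.15 and 1.31 ± 0.252 CPM) were higher. The EGFR inhibitor gene Errfi1 was lower (20.9 ± 3.45 and 1461 ± 157 CPM). Spry1 was lower in wild-type brain with a log2 fold change of -0.61 (edgeR adjusted p = 0.0345), but it was at 0.23 under library totals, and its call was lost without wild-type brain library 2 or 3 or wild-type liver library 2 or 3 (edgeR adjusted p = 0.0617, 0.0694, 0.0730 and 0.113), with the replicate block (0.0586) and without the low-count filter (0.0512).

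Downstream, 9 of 17 tested substrates and transcriptional targets of ERK were higher and 7 lower in wild-type brain. The ETS factor gene Etv1 was at 164 ± 102 and 2.77 ± 0.536 CPM, the ribosomal S6 kinase gene Rps6ka2 at 41.5 ± 9.93 and 3.24 ± 0.373 CPM, and the immediate early gene Egr1 at 188 ± 68.9 and 21.9 ± 6.69 CPM. Lower in brain were Phlda1 (8.91 ± 1.48 and 73.4 ± 54.5 CPM), the ERK-activated kinase gene Mknk2 (21.7 ± 2.10 and 115.9 ± 22.7 CPM) and Elk4, a ternary complex factor (34.5 ± 2.76 and 158 ± 12.2 CPM). Of 13 tested genes of the parallel p38, JNK and ERK5 modules 7 were higher and 3 lower in wild-type brain. The p38 gene Mapk11, the ERK5 gene Mapk7 and the JNK1 gene Mapk8 were higher, with log2 fold changes of 3.64, 2.06 and 1.46. Map2k3, which activates p38, was lower (-3.20), while Mapk14 and Map2k5 were lower with TMM (-0.73 and -0.70) but were at 0.11 and 0.14 under library totals.

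**Figure D5:**
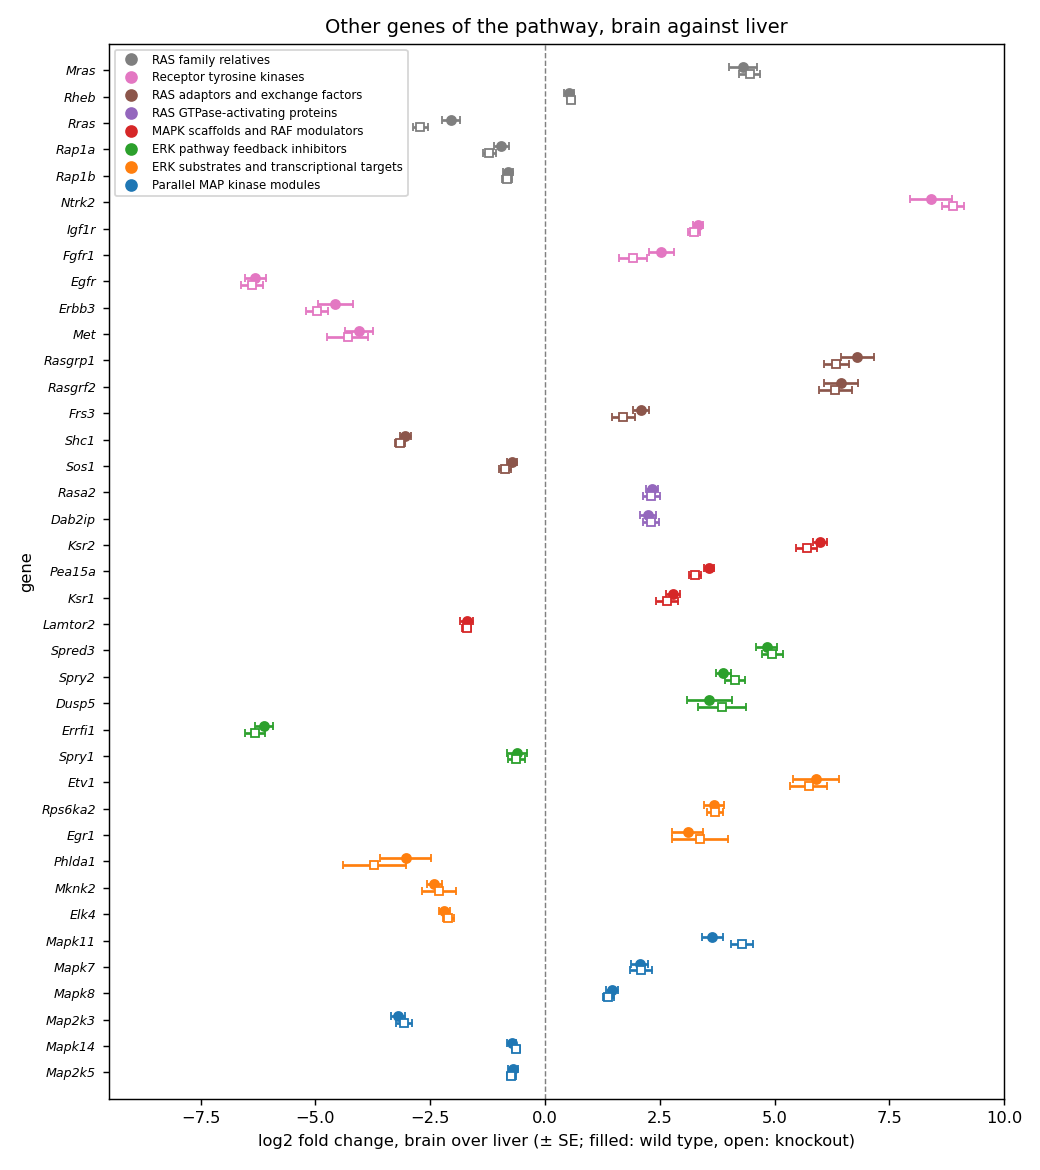
Log2 fold change of brain over liver with TMM scaling (± SE; filled circles for the wild type, open squares for the knockout) for the named genes of 8 lists around the cascade, coloured by list. The genes shown were picked as called in both genotypes with one sign, so both genotypes lie on the same side of 0 by selection. Rap1b, Sos1, Spry1, Mapk14 and Map2k5 cross 0 under library totals.

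In the knockout edgeR called no gene of these lists in brain, in liver or for the difference between tissues, with 2 of 105, 4 of 98 and 2 of 108 tested genes at an unadjusted p under 0.05, beside 0.675%, 3.5% and 2.43% of all genes, and DESeq2 called none either. With the replicate block these counts were 5 of 105, 5 of 98 and 9 of 108, beside 2.25%, 6.41% and 4.5% of all genes, and none was called. In brain, the 3 list genes with the smallest p were the neuronal RAS relative Rit2 (log2 fold change -0.31), the adaptor Gab2 (-0.27) and Frs3 (-0.23), each with edgeR adjusted p = 1.00. In liver the smallest p was that of Rras, at 10.7, 9.76 and 13.3 CPM in the wild type and 16.8, 17.2 and 19.3 CPM in the knockout. The Rras groups did not overlap, with the knockout higher (log2 fold change 0.67 ± 0.14, unadjusted p = 0.00197, edgeR adjusted p = 0.992). It was followed by the exchange factor Rasgrp2 (0.28) and by Myc (1.69), both with edgeR adjusted p = 0.992. Myc was at 28.4 and 18.5 CPM in 2 of the 3 knockout livers and at 4.65 CPM in the third, within the wild-type range of 4.43 to 6.81 CPM. Marker sums above the wild-type range in the same 2 livers only were those of Kupffer cells (177 and 330 CPM against at most 172), cholangiocytes (23.5 and 18.1 against at most 17.4) and endothelium (131 and 126 against at most 116). The other listed cell types did not have this pattern. Their part in the Myc values was not tested. For the difference between tissues the 3 smallest p-values were those of Rras (0.64, liver minus brain), Rasgrf1 and Pea15a (0.28), each with edgeR adjusted p = 1.00. Rasgrf1 was at 219.6 to 317 CPM in brain and at most 1.26 CPM in liver, so no fold is given for it.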

How the data were processed

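Total RNA of brain and liver was sequenced in 12 libraries. TRIzol extraction, DNase treatment, ribosomal RNA depletion, stranded library preparation by ligation and single-end sequencing on a NextSeq instrument are recorded per the labels' protocols. The submitters' processing notes name cutadapt, STAR and the mm10 build. Their versions, the counter and whether it used strand are not given in the sources used here. The table the authors deposited holds expected counts (estimated read counts without normalization), 1 column per library, of which 5.06% to 5.71% per library were not whole numbers. They were rounded to whole numbers. All 55450 gene identifiers and names matched GENCODE M21 on GRCm38, which gave positions and exon lengths.

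Genes were kept by filterByExpr (minimum count 10, minimum total 15) and tested with edgeR 4.0.16 (quasi-likelihood F-test, TMM, robust estimation, R 4.3.3, limma 3.58.1) over all genes, with Benjamini-Hochberg adjustment and a threshold of 0.05. Each comparison was fitted on its own 6 libraries, and the difference between tissues on 12. DESeq2 1.42.0, other scalings and filters, a replicate block and each library left out were alternatives. The averaged fit was added after seeing the data. The fits were also run on simulated counts drawn independently for each library, without pairing by number, and the outcome is not given here. Paralog ratios were tested by exact permutation over libraries. The 12 replicate pairs differed by 27.2 to 228 times the chi-square degrees of freedom, so none agreed within sampling noise.

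In liver, deviations from the group means correlated between same-numbered libraries of both genotypes (0.32, 0.34 and 0.38 over 13939 genes). The numbers thus appeared to pair the liver libraries, from the data and not from the labels. The main liver fits and ratio tests did not use this pairing, so their errors, intervals and p-values treat the libraries as unpaired. With the replicate block, the liver log2 fold changes of the 7 genes, knockout over wild type, ran from -0.19 to 0.02. None had an unadjusted p under 0.05 by edgeR. On the TMM scale a gene at 3 counts lies at 0.123 to 0.148 CPM in brain and 0.149 to 0.169 CPM in liver; the 7 genes were far above this, and this floor covers counting error only.

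The 7 genes and all lists were chosen with earlier results of these data known. Named were all 7 genes, up to 3 genes per list and direction with the largest change among those called in both genotypes with one sign and at 1 CPM or more in the lower tissue, the 3 list genes with the smallest p in each knockout comparison, and 2 genes most like each of the 7. A result for 1 gene that the rule names is not reported here. The marker and pathway lists were compared by counts and medians only. Sequences are from RefSeq (GRCm38.p6).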

Additional observations from a re-analysis of the deposited data

How the results depend on the processing

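Scaling decided the tissue direction of weakly different genes. Library totals turned Nras (0.63 in the wild type, 0.64 in the knockout), Araf (0.69, 0.67), Rap1b (0.027, 0.054), Sos1 (0.12, 0.0013), Spry1 (0.23, 0.25), Mapk14 (0.11, 0.25) and Map2k5 (0.14, 0.14), and left 16 list genes lower in brain in each genotype. The knockout calls in liver rose from 0 to 10 genes with DESeq2, 4 without the low-count filter and 2 with the replicate block, and those of the difference between tissues to 1 with DESeq2 and 2 with the block; none was one of the 7 genes. Values near 0 changed sign: in brain Map2k1 was at 0.0060 with the replicate block and at 0.0056 in the fit of 12 libraries, and in liver Braf was at -0.027 under library totals. For the difference between tissues Map2k2 was at 0.018 with DESeq2's size factors, 0.019 with its test and 0.0013 for genes of at least 1 CPM, Nras at -0.013 under library totals and -0.0027 without the filter, and Braf at -0.0071 under library totals. With each library left out, the knockout change in brain ran from -0.058 to 0.16 for Hras, -0.11 to 0.016 for Nras, -0.039 to 0.023 for Braf and -0.12 to 0.16 for Map2k1. In liver it ran from -0.18 to 0.025 for Hras, -0.053 to 0.039 for Nras, -0.019 to 0.034 for Braf, -0.092 to 0.027 for Map2k1 and -0.14 to 0.11 for Mapk3, the count of called genes from 0 to 1 and the log2 ratio of Hras to Nras, knockout minus wild type, from -0.16 to 0.016. The difference between tissues ran from -0.26 to 0.0019 for Hras, -0.042 to 0.12 for Nras, -0.026 to 0.075 for Braf, -0.19 to 0.13 for Map2k1, -0.073 to 0.091 for Map2k2 and -0.052 to 0.23 for Mapk3. The causes of these changes were not tested. Map2k2 stayed lower in the knockout in every setting run, at -0.22 to -0.15 in brain and -0.23 to -0.10 in liver with a library left out, and at -0.20 and -0.19 with the replicate block. In brain same-numbered libraries correlated at 0.67 and 0.63 for numbers 1 and 2 but at -0.02 for number 3 (15970 genes), so a pairing was not assumed, although the block lowered the common dispersion from 0.0587 to 0.0184 (in liver from 0.0434 to 0.0230). Between tissues the correlations were at most 0.04. Beyond the calls given for Nras and Spry1, the block moved no call of the 7 genes or of the named genes. The knockout intervals of the 7 genes reached -0.41 and 0.40 on the log2 scale.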

Other observations

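How the 7 genes varied between libraries of one group was described by deviations from the group means in log2 CPM over 12 libraries. These points share library and depth, and with 3 libraries per group a high value is easily reached, so the correlations are a description. Of the gene pairs in brain, Hras and Map2k1 moved together most closely (r = 0.93 over 6 libraries). In liver they did not (-0.08). Other pairs were nearly as close in brain: Nras with Map2k1 (0.87), Hras with Nras (0.82) and Braf with Map2k1 (0.81). Araf moved against Mapk3 in brain (-0.86). In brain the summed levels of 5 neuron markers were also highest in library 2 of each genotype, at 4111 CPM (wild type) and 3866 CPM (knockout), against 3026 to 3466 CPM in the other brain libraries. Astrocyte markers (4357 and 4214 CPM against 3456 to 3903 CPM) and microglia markers (97.9 and 97.4 CPM against 59.8 to 84.7 CPM) were highest in library 2 of both genotypes too. Choroid plexus markers were lowest there (3.20 and 4.01 CPM against 4.51 to 35.4 CPM). So was the sum of Lrat, Dcn, Reln and Des (113 and 99.5 CPM against 146 to 333 CPM). These were listed for stellate cells of liver and mark no named cell type in brain here. Oligodendrocyte markers were lowest in wild-type library 2 (1533 CPM) and, within the knockout, highest in library 2 (2829 CPM). The part of these marker differences in the Hras and Map2k1 values was not tested. Of the gene pairs in liver, Hras and Map2k2 moved together most closely (r = 0.91), and in brain they did not (-0.01). Next in liver were Araf with Map2k2 (0.80) and Nras with Braf (0.79). Among the livers, Hras and Map2k2 were both lowest in knockout library 3. There the hepatocyte and stellate cell marker sums were the highest and the cholangiocyte sum the lowest of the 6 livers (98071, 445 and 8.97 CPM). Their part in the Hras and Map2k2 values was not tested.

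Among 6363 genes, those with the most similar deviations over the 12 libraries were Tanc2 and Ube2v1 for Hras (r = 0.97 and 0.96), Arl8b and Psmc6 for Nras (0.94 and 0.93), and Rab21 and Gabarapl2 for Araf (0.95 and 0.94). For Braf they were Pum2 and Nr2c2 (both 0.91), for Map2k1 Exoc6 and Cask (both 0.97), for Map2k2 Rfk and Leprotl1 (0.97 and 0.92), and for Mapk3 Psmd3 and Asxl1 (0.92 and 0.90).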
